A study of Mus musculus with 14 samples.

Results

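The families of genes through which growing axons read their surroundings were described in the dentate gyrus of mouse slice cultures with and without the amyloid precursor protein, APP. They were the semaphorins with their plexin and neuropilin receptors, the ephrins with the Eph receptors, the netrins with DCC and the UNC5 receptors, and the Slits with the Robo receptors. Members were taken by gene symbol and kept where the annotation deposited with the counts called them protein-coding. This gave 69 of the 55291 genes counted, of which 20 were semaphorins, 9 plexins, 2 neuropilins, 8 ephrins, 14 Eph receptors, 4 netrins, 5 netrin receptors, 3 Slits and 4 Robo receptors. A further 3 symbols fitted the same pattern but were antisense transcripts of Plxna4 and were left out.

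Polyadenylated RNA had been sequenced from 14 dentate gyri, 8 from cultures of an APP-deficient line (APP-/-, the gene-targeted line of Li et al., called APPko here) and 6 from C57BL/6J cultures (APP+/+, called wildtype). Each culture was an organotypic slice of entorhinal cortex with hippocampus, prepared on postnatal day 4 to 5 and left to mature for at least 18 days. One dentate gyrus was cut out of each culture with a scalpel, so a library holds all cell types of the tissue. The labels give the APP-/- genotype for whole animals and not for 1 cell type. They give neither the genetic background of that line nor which cultures came from the same animal, so the tests rest on the variation among cultures, part of which may be technical.

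Semaphorins signal through plexins, and the secreted class 3 semaphorins do so mostly with a neuropilin as co-receptor. Ephrins are membrane-bound ligands, tethered by a lipid anchor in class A and spanning the membrane in class B, and their Eph receptors are tyrosine kinases that act on contact between cells. Netrins attract axons through DCC and repel them through UNC5 receptors, and Slits repel axons through Robo receptors. In the hippocampus these systems sort entorhinal fibres and mossy fibres into their layers, and they act later on dendritic spines and synapses.

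Total counts per library were 20298058 to 31031126 in APPko and 16686909 to 29713323 in wildtype. App itself, the check of the labels, had 182 to 231 CPM (counts scaled to library size, here with TMM factors) in APPko libraries and 679 to 964 CPM in wildtype libraries, a log2 change of -1.92 (SE 0.11, edgeR adjusted p = 9.19e-09). From which part of the gene the remaining App reads came was not analysed here. Of 8 granule cell markers, which include Prox1, the factor that specifies these neurons, none was at 0 in all libraries, and Prox1 averaged 151 ± 33.4 CPM in APPko and 158 ± 40.5 CPM in wildtype (SD, n = 8 and 6). The headers of the count columns end in f for 7 APPko and 3 wildtype libraries and in m for 1 APPko and 3 wildtype libraries. Wildtype libraries 2 and 3, both f, had TMM factors of 0.8516 and 0.8467, against 0.9755 or more in the other 12.

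Together the 69 members took 0.249 ± 0.0137% of all counts in APPko and 0.262 ± 0.0295% in wildtype (SD, n = 8 and 6). Per kilobase of exon, the scale on which genes can be compared, Epha4 was by far the most abundant. It held 24.2% of the members' summed level, at 61.2 ± 9.78 CPM per kb in APPko and 73 ± 15.6 CPM per kb in wildtype. Below it, and at 10 CPM per kb or more over all libraries, came Epha7, Nrp1, Epha5 and Plxna4, with 6.67, 4.82, 4.13 and 4.05% of the summed level. The 5 that followed were Efnb3, Nrp2, Plxna2, Robo2 and Sema3e. 45 members reached 1 CPM per kb and 24 did not, and the median member was at 1.79 CPM per kb, against 3.27 CPM per kb over all tested protein-coding genes, a value that 23 members exceeded. Summed by role, the 35 ligands reached 83.6 ± 3.75 CPM per kb in APPko and 80.9 ± 4.05 CPM per kb in wildtype, and the 34 receptors 182 ± 15.6 CPM per kb in APPko and 204 ± 23.8 CPM per kb in wildtype. The netrin ligands were the scarcest family, at 2.05 ± 0.286 CPM per kb in APPko and 2.07 ± 0.578 CPM per kb in wildtype for all 4 together.

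**Figure D1:**
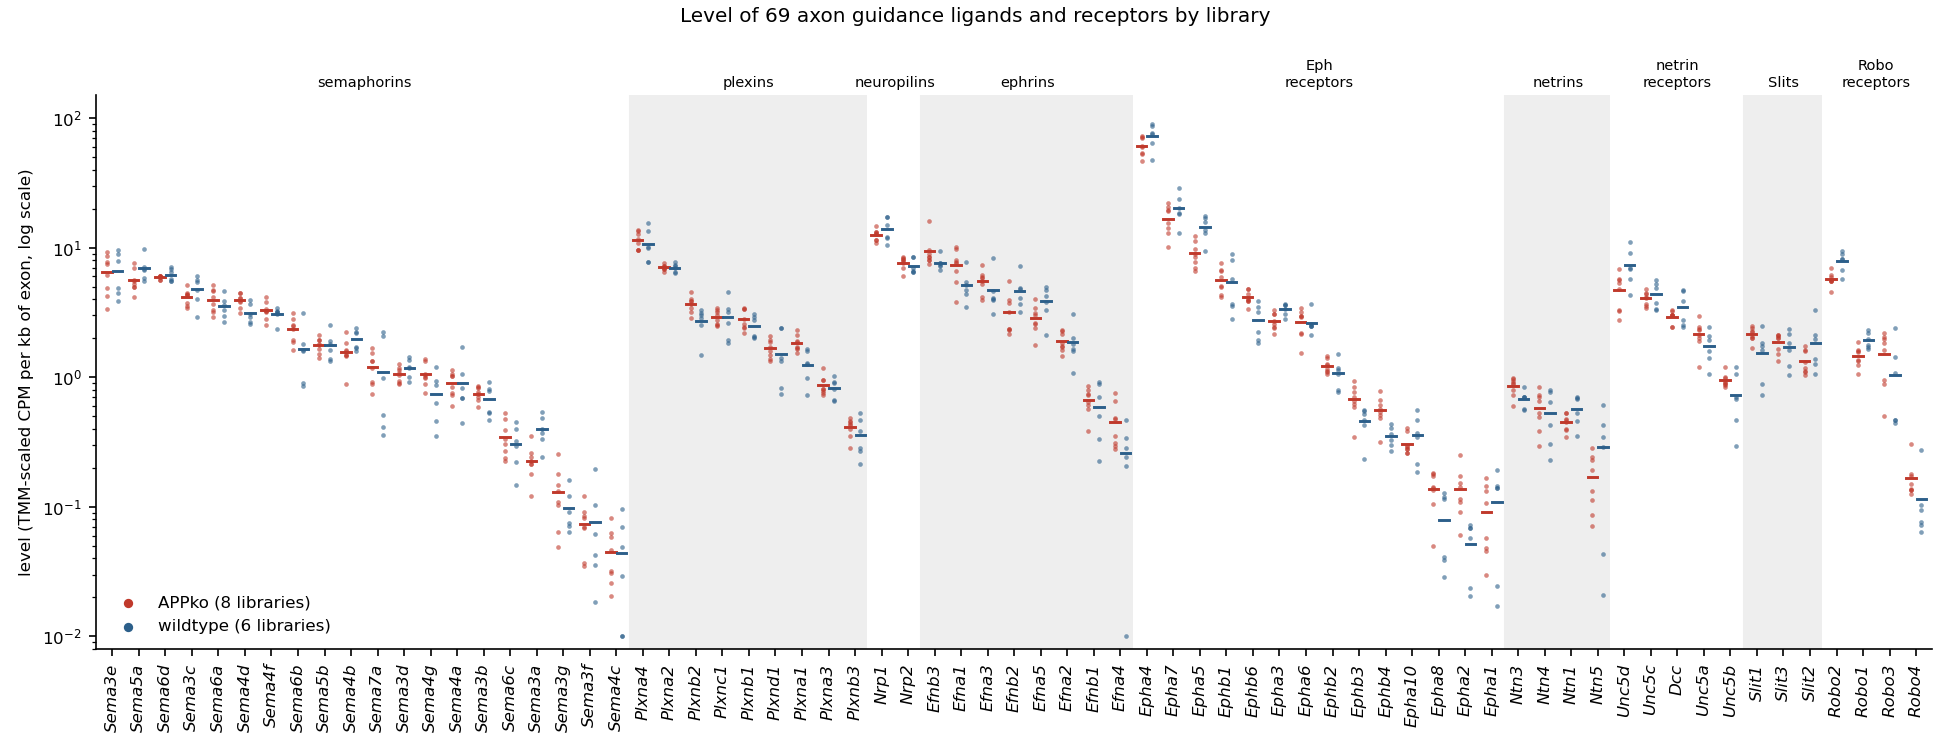
Level of each of the 69 members on a log scale in TMM-scaled CPM per kb of exon, by family, with APPko libraries (n = 8) in red left of wildtype libraries (n = 6) in blue. Points are libraries, values under 0.01 are drawn at 0.01, and bars are group means of the drawn values, with Epha4 the highest member in every library and the libraries of the genotypes overlapping for every member.

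Sema4c, a transmembrane semaphorin, did not pass the filter on low counts and averaged 0.207 ± 0.0987 CPM in APPko and 0.187 ± 0.177 CPM in wildtype (SD, n = 8 and 6). Of the 68 members tested, 2 fell in APPko by edgeR's quasi-likelihood test with Benjamini-Hochberg adjustment over all 22150 tested genes, Epha5 and Robo2, and none rose. Over all genes 0.944% passed as higher, 1.41% as lower and 2.35% in either direction, so the 2.94% of members that passed lay near the background. At an unadjusted p under 0.05, 10 members were higher and 10 lower, 14.7% in each direction, against 9.07% and 11.4% of all genes. In either direction these were 20 of 68 members, 4527 of all 22150 genes and 3732 of the 15754 tested genes that, like the members, are protein-coding. DESeq2 called 3 members higher (Ephb4, Ephb6 and Plxna1) and 5 lower (Epha5, Robo1, Robo2, Unc5d and Sema3a) of the 60 for which it gave an adjusted p, where it called 4.23% of all genes higher and 5.78% lower.

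Members had fitted changes in both directions, and not passing the threshold does not show that a level was equal. The fitted log2 change was positive for 41 and negative for 27 members, with a median of 0.08 against -0.01 over all tested genes. It went beyond 1 in size for Epha2 alone, a receptor for class A ephrins, which had 0.284 to 1.18 CPM with a median of 0.601 CPM in APPko and 0.0963 to 0.338 CPM with a median of 0.296 CPM in wildtype. Its log2 change of 1.37 (SE 0.41, edgeR adjusted p = 0.0765) rested on 132 counts over the APPko libraries and 31 over the wildtype libraries and did not pass. No member had all APPko libraries above, or all below, the wildtype libraries, which held for 0.506% of all genes in the higher and 0.609% in the lower direction. Leaving out single libraries gave 0 to 2 members higher and 0 to 4 lower, while 0.174 to 6.36% of all genes were called. No member was called without APPko libraries 1, 2, 4, 5, 6 or 7 or wildtype libraries 2, 3 or 6.

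**Figure D2:**
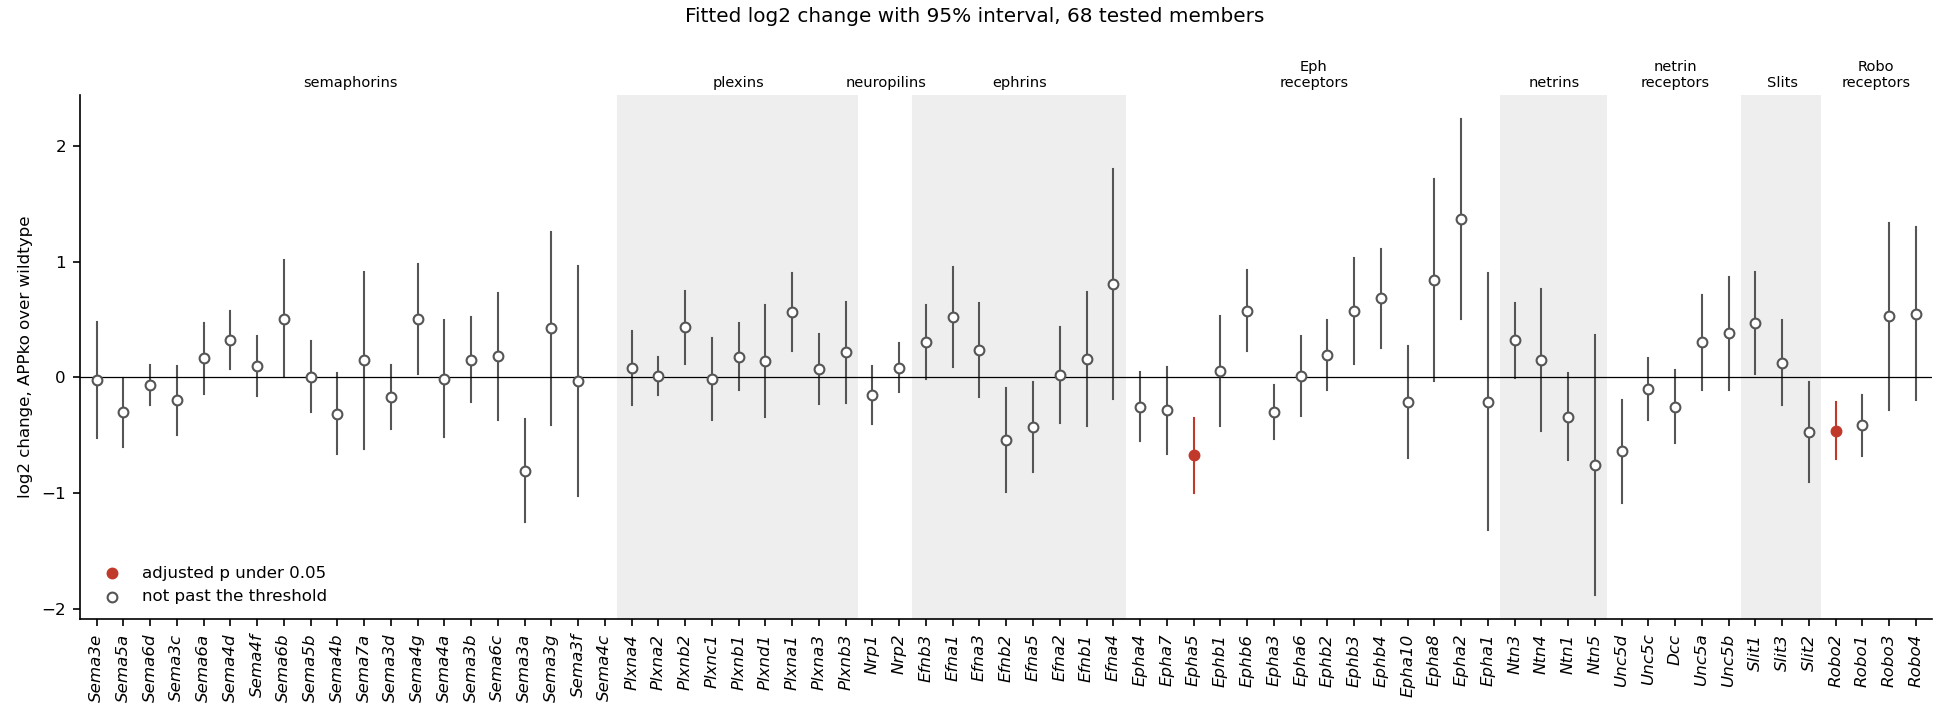
Fitted log2 change of APPko over wildtype with its 95% interval for the 68 tested members, by family and in descending order of level. Filled red points mark an adjusted p under 0.05, reached by Epha5 at -0.67 and Robo2 at -0.46, and Sema4c has no point because it was not tested.

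Epha5 encodes a receptor tyrosine kinase for the ephrin-A ligands, known from hippocampal topographic maps and synapse formation. It lies on chromosome 5 (84054761 to 84417382, minus strand, GRCm38). APPko libraries had 111 to 207 CPM with a median of 145 CPM, against 157 to 294 CPM with a median of 246 CPM in wildtype libraries. 5 of the 8 APPko libraries lay below the lowest wildtype library, which was number 4, and the groups overlapped through APPko libraries 6, 7 and 8. The level averaged 151 ± 33.7 CPM in APPko and 240 ± 50.6 CPM in wildtype (SD, n = 8 and 6), so that Epha5 was 1.59-fold lower in APPko (log2 change -0.67, SE 0.16, 95% interval -1.0 to -0.35, edgeR adjusted p = 0.0342). Among f libraries the mean was 143 CPM in APPko and 242 CPM in wildtype, and the single m library of APPko had 207 CPM, against 157 to 294 CPM in the 3 of wildtype. The direction held in all 28 alternative settings, with log2 changes of -0.78 to -0.57, but the adjusted p was 0.0531 to 0.0891 without any one of wildtype libraries 2, 3 and 6 or APPko libraries 1 to 7.

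Such a difference in a tissue cannot tell fewer cells of a type from less RNA per cell, and this holds for every member below. Most granule cell markers were also lower in fitted level. Of 8 markers 7 had a negative log2 change and 2 fell, Rfx3 (log2 change -0.52, edgeR adjusted p = 0.0309) and Npy1r (log2 change -0.74, edgeR adjusted p = 0.031). Prox1 and Dsp were at only -0.06 and -0.08, and C1ql2 was positive at 0.19. The summed level of the 8 was 530 to 914 CPM in APPko and 713 to 1342 CPM in wildtype. Calb1, which did not pass, made up 277 ± 89.6 CPM of it in APPko and 454 ± 184 CPM in wildtype. The part of these 8 markers in the differences of Epha5 and the other members was not tested. None of the markers in the other 9 lists, for mossy cells and CA fields, interneurons, immature neurons, astrocytes, microglia, oligodendrocytes and their precursors, endothelium, and pericytes with fibroblasts, passed the threshold, and none was at 0 in all libraries. All 7 interneuron markers had a negative log2 change, with a median of -0.17 and the lowest for Pvalb at -0.73 (edgeR adjusted p = 0.0898), and their summed level was 868 to 1458 CPM in APPko and 875 to 1933 CPM in wildtype.

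The 250 bases upstream of the start of each of the genes that passed are shown, since these are the stretches next to the members whose level differed. Capitals mark GGGCGG, the GC box that Sp family factors can bind, searched on both strands. Both sequences are from RefSeq on GRCm38.p6 and are written 5′ to 3′ on the gene's strand, Epha5 at chr5:84417383-84417632 (minus) and Robo2 at chr16:74411826-74412075 (minus).
Epha5: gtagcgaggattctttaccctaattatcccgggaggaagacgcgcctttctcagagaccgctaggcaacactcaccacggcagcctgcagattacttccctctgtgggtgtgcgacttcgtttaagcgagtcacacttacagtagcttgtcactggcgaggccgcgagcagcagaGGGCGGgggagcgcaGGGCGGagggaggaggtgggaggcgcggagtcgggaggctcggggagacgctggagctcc
Robo2: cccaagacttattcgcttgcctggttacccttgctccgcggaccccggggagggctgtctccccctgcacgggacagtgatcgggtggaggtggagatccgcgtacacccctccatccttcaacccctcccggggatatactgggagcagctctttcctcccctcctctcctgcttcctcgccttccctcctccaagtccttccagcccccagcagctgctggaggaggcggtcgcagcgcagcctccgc

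The Epha5 window held 2 copies of the hexamer and 20 CpG dinucleotides at 62.4% GC, and the Robo2 window held no copy and 14 CpG at 65.6% GC. The hexamer stood on either strand in 32.7% of 32851 such windows of the table and in 53 of the 75 windows (70.7%) that the table holds for 59 members. Member windows were also richer in GC, with a median of 64.4% against 52.4% over all windows. The table lists 3 starts for Robo2, of which the one at the annotated gene start is shown.

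Robo2 encodes a receptor for the Slit proteins that keeps growth cones away from their sources. It lies on chromosome 16 (73891839 to 74411825, minus strand, GRCm38), 10.54 Mb from App. APPko libraries had 76.8 to 118 CPM with a median of 95.1 CPM, against 96.9 to 161 CPM with a median of 139 CPM in wildtype libraries. 5 of 8 APPko libraries lay below the lowest wildtype library, again number 4, and wildtype libraries 1 and 4 lay within the APPko range. The means were 97.1 ± 11.7 CPM in APPko and 134 ± 23.8 CPM in wildtype (SD, n = 8 and 6), a 1.38-fold lower level in APPko (log2 change -0.46, SE 0.12, 95% interval -0.70 to -0.22, edgeR adjusted p = 0.0466). Among f libraries the mean was 94.1 CPM in APPko and 138 CPM in wildtype, and among m libraries 118 CPM in the APPko library and 129 CPM in wildtype. The log2 change stayed between -0.55 and -0.35 in 28 alternative settings, but the adjusted p was 0.0598 to 0.136 without any one of wildtype libraries 2, 3, 5 and 6 or APPko libraries 1 to 7, and 0.0971 with no filter on low counts.

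Robo1, the other main Slit receptor and a neighbour of Robo2 at 11.9 Mb from App, had 17.4 to 30.6 CPM with a median of 24.1 CPM in APPko and 27.4 to 37.9 CPM with a median of 31 CPM in wildtype. 7 of 8 APPko libraries lay below every wildtype library, APPko library 7 being the exception. Its log2 change of -0.42 (SE 0.12, 95% interval -0.68 to -0.15) missed the threshold at an edgeR adjusted p of 0.0748, and without wildtype library 4 it passed at -0.46 with an adjusted p of 0.0432. Robo1 passed in 1 of 14 fits without a single library, and without wildtype libraries 2 and 3 it was at -0.29 (edgeR adjusted p = 0.359). Robo3, which in mammals steers commissural axons, had 3.43 to 15.1 CPM with a median of 11.8 CPM in APPko and 3.01 to 16.4 CPM with a median of 5.33 CPM in wildtype. This was the most uneven Robo receptor, with a coefficient of variation of 42.1% in APPko and 73.9% in wildtype, and its log2 change of 0.53 had an interval of -0.28 to 1.34 (edgeR adjusted p = 0.472). Robo4, the member of the family found in endothelium, stayed under 2 CPM, with 0.666 to 1.62 CPM and a median of 0.761 CPM in APPko and 0.338 to 1.45 CPM and a median of 0.455 CPM in wildtype (log2 change 0.55, SE 0.36, edgeR adjusted p = 0.406). Wildtype library 1 was the highest of its group for Robo3 and Robo4, and without it their log2 changes were 0.97 (edgeR adjusted p = 0.121) and 1.02 (edgeR adjusted p = 0.075).

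The Slit ligands did not move as one. Slit1 had 9.97 to 14.6 CPM with a median of 12.8 CPM in APPko and 4.32 to 14.6 CPM with a median of 9.99 CPM in wildtype, where libraries 2 and 3 were the low ones (log2 change 0.47, SE 0.21, edgeR adjusted p = 0.207). Slit2 had 26.6 to 43.9 CPM with a median of 31.5 CPM in APPko and 26.9 to 83.8 CPM with a median of 42.6 CPM in wildtype, where library 2 was the highest (log2 change -0.47, SE 0.21, edgeR adjusted p = 0.2). Without that library the change of Slit2 was -0.23 (edgeR adjusted p = 0.582). Slit3 had 8.14 to 12.9 CPM with a median of 12.1 CPM in APPko and 6.35 to 14.3 CPM with a median of 10.5 CPM in wildtype (log2 change 0.13, SE 0.17, edgeR adjusted p = 0.731). All groups overlapped, and no Slit passed the threshold.

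**Figure D3:**
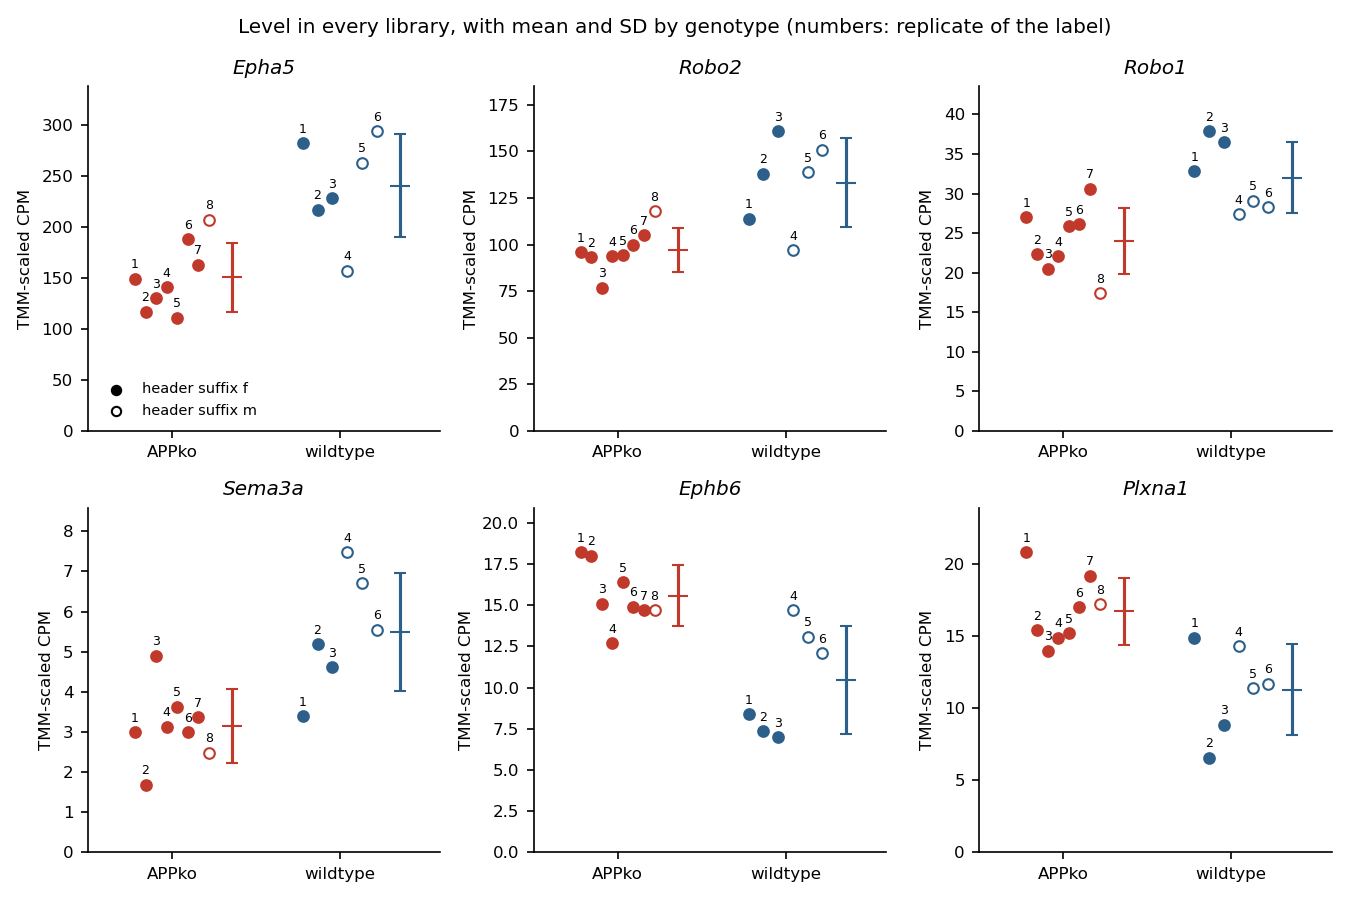
TMM-scaled CPM of 6 members in every library, APPko (red) left of wildtype (blue), with replicate numbers, filled points for header suffix f and open points for m, and mean ± SD beside each group. Epha5 and Robo2 passed the threshold and the other 4 did not, and the 3 lowest wildtype values of Ephb6 are its f libraries.

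Among the Eph receptors, class A and class B members leaned in different directions, and a test of that difference was not made. In class A, 6 of 9 members had a negative log2 change, with a median of -0.21, and 1 passed (Epha5). In class B all 5 were positive, with a median of 0.58, and none passed. Both counts were the same under RLE and upper-quartile scaling and with the GC trend of each library removed. In that last fit the class B median was 0.32, and Ephb1 and Ephb2 were at only 0.0275 and 0.0256. The median transcript GC content was 56.8% in class B and 48.8% in class A. Of all tested genes above 56% GC, 76.4% had a positive log2 change, and the part of composition in the class difference was not tested. Without wildtype libraries 2 and 3, 4 of 5 class B members were positive with a median of 0.37.

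Epha4, the receptor that binds ligands of both ephrin classes and is found on hippocampal dendritic spines, had 378 to 590 CPM with a median of 489 CPM in APPko and 379 to 719 CPM with a median of 609 CPM in wildtype. Its log2 change was -0.25 (SE 0.14, 95% interval -0.55 to 0.05, edgeR adjusted p = 0.33), and the groups overlapped widely. Epha7, a receptor for class A ephrins, had 100 to 217 CPM with a median of 171 CPM in APPko and 127 to 283 CPM with a median of 191 CPM in wildtype (log2 change -0.28, SE 0.18, edgeR adjusted p = 0.391). APPko library 3 was the lowest of its group for Epha4, Epha7, Epha3 and Epha6, and wildtype library 4 the lowest of its group for Epha4, Epha5 and Epha7.

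Ephb6, a family member without kinase activity, had 12.7 to 18.2 CPM with a median of 15 CPM in APPko and 6.98 to 14.7 CPM with a median of 10.2 CPM in wildtype. The f libraries of wildtype had 6.98 to 8.4 CPM and its m libraries 12.1 to 14.7 CPM, so the low wildtype values all came from one suffix, while the APPko mean was 15.7 CPM in f libraries and 14.7 CPM in the m library. Its log2 change was 0.58 (SE 0.17, 95% interval 0.23 to 0.92, edgeR adjusted p = 0.0675), and 1.05 among f libraries alone (edgeR adjusted p = 0.00112). Without wildtype library 4 it was 0.70 (edgeR adjusted p = 0.0175). Ephb4, the ephrin-B2 receptor of veins, was near 2 CPM, with 1.48 to 3.6 CPM and a median of 2.56 CPM in APPko and 1.25 to 2.03 CPM and a median of 1.6 CPM in wildtype. 7 of 8 APPko libraries lay above every wildtype library, and its log2 change was 0.68 (SE 0.20, edgeR adjusted p = 0.0742). The exception was APPko library 8, the single m library of APPko, at 1.48 CPM against 1.69 to 2.03 CPM in the m libraries of wildtype. Among f libraries the mean of Ephb4 was 2.76 CPM in APPko and 1.38 CPM in wildtype. Leaving out APPko library 8 gave 0.78 (edgeR adjusted p = 0.0454), the only pass for Ephb4 in 14 fits without a single library. The remaining 9 Eph receptors had log2 changes of -0.30 (Epha3) to 1.37 (Epha2), none past the threshold.

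The ephrin ligands were 6 positive and 2 negative, with a median log2 change of 0.20, and none passed. With the GC trend removed 3 were positive and 5 negative, with a median of -0.03. Efna1, a class A ligand, had 7.01 to 18.6 CPM with a median of 14 CPM in APPko and 6.34 to 14.1 CPM with a median of 9.04 CPM in wildtype (log2 change 0.52, SE 0.21, edgeR adjusted p = 0.158). Efnb2, the class B ligand of arteries and synapses, had 14.8 to 37.9 CPM with a median of 19 CPM in APPko and 21.7 to 49.5 CPM with a median of 30.6 CPM in wildtype. Here 5 of 8 APPko libraries lay below all wildtype libraries (log2 change -0.54, SE 0.21, edgeR adjusted p = 0.158). The ephrin highest per kilobase was Efnb3, a class B ligand, with 23.7 to 51.1 CPM and a median of 27.1 CPM in APPko and 21.2 to 29.9 CPM and a median of 23.6 CPM in wildtype (log2 change 0.30, SE 0.15, edgeR adjusted p = 0.274). Its top value in each genotype, APPko library 3 and wildtype library 1, stood well above the rest of its group. Efna3, a class A ligand whose exons overlap an antisense transcript over 14.1% of their length, had 9.63 to 17.9 CPM with a median of 13.8 CPM in APPko and 7.44 to 20.4 CPM with a median of 9.86 CPM in wildtype (log2 change 0.24, SE 0.19, edgeR adjusted p = 0.53). The other 4 ephrins had log2 changes of -0.43 (Efna5) to 0.81 (Efna4), and Efna4 was under 1 CPM on average and at 0 in wildtype library 2.

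Of the 19 tested semaphorins 10 had a positive and 9 a negative log2 change, with a median of 0.01, and none passed. Sema3a, a secreted repellent that acts through Nrp1, came closest. It had 1.69 to 4.9 CPM with a median of 3.06 CPM in APPko and 3.39 to 7.47 CPM with a median of 5.37 CPM in wildtype. APPko library 3 was the highest of its group and wildtype library 1 the lowest of its own, and 6 of 8 APPko libraries lay below all wildtype libraries. The log2 change was -0.81 (SE 0.21, 95% interval -1.25 to -0.36), at an edgeR adjusted p of 0.0502. Without wildtype library 1 it passed at -0.90 (edgeR adjusted p = 0.0237) and without APPko library 3 at -0.91 (edgeR adjusted p = 0.0329). With all libraries Sema3a passed under RLE scaling (edgeR adjusted p = 0.0466), with no filter on low counts (0.0382), with a mean of at least 1 CPM (0.0476) and among protein-coding genes alone (0.0498). It also passed with voom weights (limma adjusted p = 0.042). It did not pass under upper-quartile scaling (edgeR adjusted p = 0.0569), with the exon length trend (0.0668) or GC trend (0.0814) removed, or with the header suffix as a covariate (0.1). Nor did it pass among f libraries alone (-0.45, edgeR adjusted p = 0.259), without wildtype libraries 2 and 3 (0.117), or in libraries 1 to 6 of each genotype with (0.146) or without (0.129) the replicate block. Among f libraries the mean of Sema3a was 3.24 CPM in APPko and 4.4 CPM in wildtype, and among m libraries it was 2.48 CPM in the APPko library and 6.58 CPM in wildtype.

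The libraries of the genotypes overlapped for the other semaphorins too. Sema4d, a transmembrane ligand of plexin B1, had 24.1 to 34.4 CPM with a median of 30.5 CPM in APPko and 19.7 to 30.4 CPM with a median of 22.9 CPM in wildtype (log2 change 0.32, SE 0.12, edgeR adjusted p = 0.133). Sema3e, which binds plexin D1 without a neuropilin, had 31.3 to 86 CPM with a median of 63.1 CPM in APPko and 36.1 to 88.6 CPM with a median of 59.1 CPM in wildtype (log2 change -0.02, SE 0.24, 95% interval -0.52 to 0.48). It was the semaphorin highest per kilobase, and its coefficient of variation was 33.2% in APPko and 37.4% in wildtype. In wildtype its f libraries had 72.8 to 88.6 CPM and its m libraries 36.1 to 45.3 CPM. Among f libraries the mean of Sema3e was 58.4 CPM in APPko and 81.3 CPM in wildtype (log2 change -0.48, edgeR adjusted p = 0.207). The m library of APPko had 72.1 CPM. Sema5a, which restrains the synapses of granule cells in mice, had 77.6 to 142 CPM with a median of 101 CPM in APPko and 104 to 182 CPM with a median of 126 CPM in wildtype (log2 change -0.30, SE 0.14, edgeR adjusted p = 0.24). Sema6d had the lowest coefficient of variation of the members in APPko, 3.16% at 59.2 to 64.3 CPM, but 10.6% at 58.6 to 74.2 CPM in wildtype (log2 change -0.06, 95% interval -0.24 to 0.11). Sema6d was picked after its values were seen. The other 14 tested semaphorins had log2 changes of -0.31 (Sema4b) to 0.51 (Sema4g and Sema6b).

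The plexins were 8 positive and 1 negative, with a median log2 change of 0.14, and none passed. With upper-quartile scaling all 9 were positive, and with the GC trend removed 5 were positive. Plxna1, a partner of neuropilins in class 3 signalling, had 14 to 20.8 CPM with a median of 16.2 CPM in APPko and 6.57 to 14.9 CPM with a median of 11.6 CPM in wildtype. 7 of 8 APPko libraries lay above all wildtype libraries, and its log2 change was 0.57 (SE 0.16, 95% interval 0.23 to 0.91, edgeR adjusted p = 0.0659). It passed without wildtype library 1 (0.67, edgeR adjusted p = 0.032) and without wildtype library 4 (0.65, edgeR adjusted p = 0.0295). An antisense gene, Gm26811, overlaps 10.7% of the exon length of Plxna1, and the strand setting of the counting is not given in the sources used here. Plxnb2, a receptor of class 4 semaphorins, had 22.1 to 35 CPM with a median of 28.9 CPM in APPko and 11.5 to 25.3 CPM with a median of 22.6 CPM in wildtype (log2 change 0.43, SE 0.15, edgeR adjusted p = 0.116). Plxnc1, Plxna3, Plxnd1, Plxnb1 and Plxnb3 had log2 changes of -0.01, 0.07, 0.14, 0.18 and 0.22.

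The plexins highest per kilobase, Plxna4 and Plxna2, had small fitted changes. Plxna4, which with Plxna2 receives Sema6a when mouse mossy fibres choose their layer, had 135 to 192 CPM with a median of 158 CPM in APPko and 109 to 218 CPM with a median of 141 CPM in wildtype (log2 change 0.08, SE 0.15, 95% interval -0.24 to 0.40). Plxna2 had 112 to 130 CPM with a median of 121 CPM in APPko and 109 to 132 CPM with a median of 121 CPM in wildtype, and the interval of its log2 change of 0.01 was -0.15 to 0.18. Its coefficient of variation was 4.42% in APPko and 7.33% in wildtype. Both neuropilins were abundant and passed no threshold. Nrp1, the co-receptor of Sema3a, had 107 to 143 CPM with a median of 126 CPM in APPko and 102 to 170 CPM with a median of 132 CPM in wildtype (log2 change -0.15, SE 0.12, 95% interval -0.40 to 0.10). Nrp2, the co-receptor of Sema3f, had 71.9 to 100 CPM with a median of 94.2 CPM in APPko and 76.5 to 101 CPM with a median of 79.8 CPM in wildtype (log2 change 0.08, SE 0.10, 95% interval -0.13 to 0.30).

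Among the netrin receptors, 2 of 5 were positive and none passed. Unc5d, which also binds FLRT proteins, had 25.5 to 63.6 CPM with a median of 46.9 CPM in APPko and 40 to 102 CPM with a median of 63.9 CPM in wildtype. APPko libraries 1, 5 and 7 lay below all wildtype libraries, and its log2 change was -0.64 (SE 0.21, 95% interval -1.09 to -0.19, edgeR adjusted p = 0.103). Without wildtype library 1 it passed at -0.74 (edgeR adjusted p = 0.0488), the only pass in 14 fits without a single library. Without wildtype libraries 2 and 3 it was -0.53 (edgeR adjusted p = 0.401). Unc5c, a receptor for repulsion, had 65.9 to 91.5 CPM with a median of 78.9 CPM in APPko and 63.3 to 108 CPM with a median of 82.5 CPM in wildtype (log2 change -0.10, SE 0.13, 95% interval -0.37 to 0.17). Dcc, the receptor for attraction, had 32 to 43.3 CPM with a median of 39.8 CPM in APPko and 32.3 to 62.2 CPM with a median of 43.6 CPM in wildtype, where libraries 2 and 3 were highest (log2 change -0.25, SE 0.15, edgeR adjusted p = 0.356). Unc5a, of the same family, had 4.96 to 12.3 CPM with a median of 9.18 CPM in APPko and 4.45 to 10.1 CPM with a median of 7.37 CPM in wildtype (log2 change 0.30, SE 0.19, edgeR adjusted p = 0.401). Unc5b, the last of the 5, had a log2 change of 0.38 (edgeR adjusted p = 0.379).

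The netrin ligands were all under 6 CPM and none passed. Ntn3 had 3.04 to 5.04 CPM with a median of 4.6 CPM in APPko and 2.86 to 4.31 CPM with a median of 3.59 CPM in wildtype (log2 change 0.32, SE 0.16, edgeR adjusted p = 0.256). Ntn1, the attractant of commissural axons, had 2.16 to 3.33 CPM with a median of 2.88 CPM in APPko and 2.21 to 4.45 CPM with a median of 3.77 CPM in wildtype (log2 change -0.34, SE 0.18, edgeR adjusted p = 0.297, and -0.64 at an adjusted p of 0.0663 with the GC trend removed). Ntn4, a netrin of basement membranes, had 1.11 to 3.15 CPM with a median of 2.22 CPM in APPko and 0.867 to 2.96 CPM with a median of 2.02 CPM in wildtype (log2 change 0.15, SE 0.29, edgeR adjusted p = 0.825). Ntn5 had 0.158 to 0.629 CPM with a median of 0.36 CPM in APPko and 0.0459 to 1.35 CPM with a median of 0.708 CPM in wildtype (log2 change -0.76, SE 0.54, edgeR adjusted p = 0.453), and 23.4% of its exon length overlaps Sec1 on the other strand. It rested on 81 counts in each genotype. Among f libraries its mean was 0.385 CPM in APPko and 0.263 CPM in wildtype, and among m libraries 0.296 CPM in the APPko library and 1.02 CPM in wildtype.

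The direction of a member's change went with the base composition of its transcripts. Of 34 members with a mean transcript GC content above the members' median of 56%, 29 had a positive log2 change, with a median of 0.30, and of the 34 below it 22 had a negative one, with a median of -0.13. All tested genes cut at the same 56% had medians of 0.22 above it and -0.05 below it, so the pattern was not limited to the members. Across the 68 members the log2 change correlated with GC content at r = 0.52 (Spearman's rho = 0.56) and with log10 genomic span at r = -0.55 (rho = -0.59), as a description of genes measured in the same libraries. With the GC trend of each library removed, the GC-rich members were 18 positive and 16 negative, with a median of 0.04. Without wildtype libraries 2 and 3 they were 23 positive and 11 negative, with a median of 0.16.

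Of the members closest to the threshold, Epha5, Robo2 and Sema3a had 44.3, 44.5 and 42% GC, and Plxna1, Ephb4 and Ephb6 had 56.2, 58.1 and 59.3% GC. With the GC trend removed, Plxna1, Ephb4 and Ephb6 had log2 changes of 0.39, 0.44 and 0.32, against 0.57, 0.68 and 0.58 with TMM alone. Sema3a was at -0.71 against -0.81. Some other members had negative changes that were larger once the trend was removed. Its removal moved Ntn1 (62.2% GC) to -0.64 against -0.34 with TMM alone, Ntn5 (63.4% GC) to -0.96 against -0.76, and Efnb2 (53.4% GC) to -0.66 against -0.54. Ntn1 then had the smallest p of all members (edgeR adjusted p = 0.0663). The change of Ntn5 depended on the header suffix, at -0.03 with the suffix as a covariate and 0.59 among f libraries alone. No member passed once the GC trend was removed, when Epha5 had a log2 change of -0.58 (edgeR adjusted p = 0.0781) and Robo2 one of -0.35 (edgeR adjusted p = 0.116), while 223 of all genes passed. The same held with a trend over exon length removed (Epha5 -0.57, Robo2 -0.36, 345 genes called) and without wildtype libraries 2 and 3 (Epha5 -0.72, Robo2 -0.36, 35 genes called). How much of the differences came with composition was not tested beyond these fits.

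**Figure D4:**
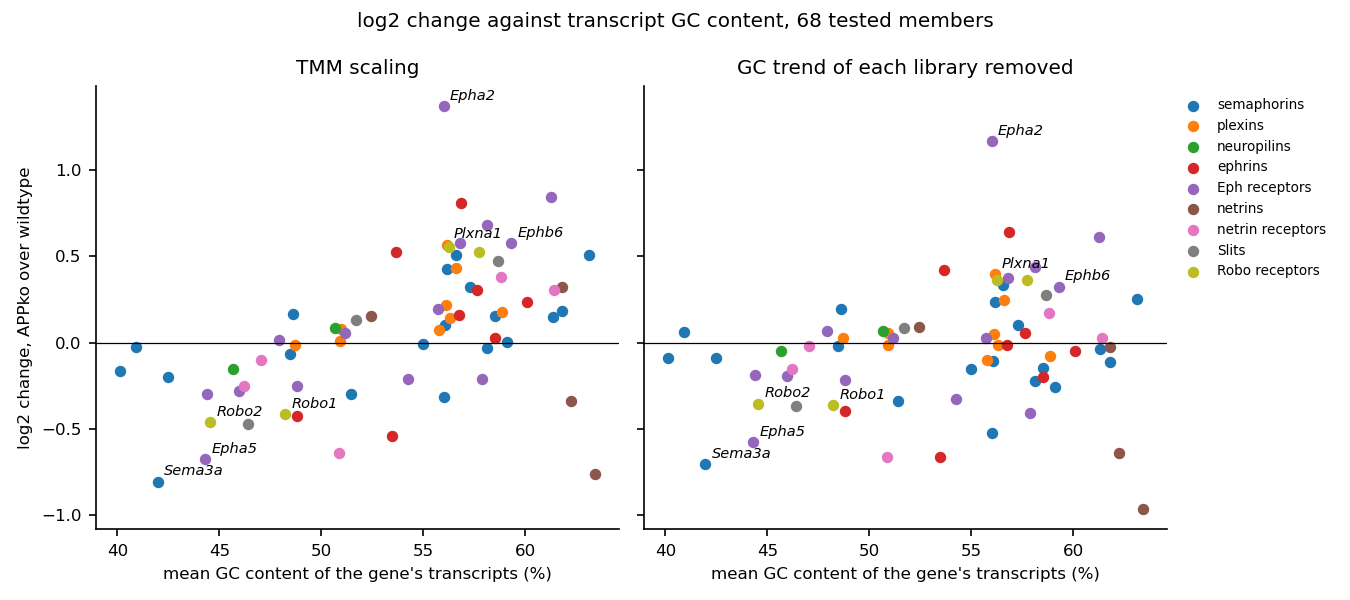
Fitted log2 change of APPko over wildtype against mean transcript GC content for the 68 tested members, coloured by family, with TMM scaling (left) and with the GC trend of each library removed (right). On the left 29 of the 34 members above 56% GC are positive, and on the right 18 of 34.

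The header suffix moved the counts as well. Among f libraries alone, 7 APPko and 3 wildtype, 13 members were called higher and 7 lower, while 7.10% of all genes tested there were called higher and 8.47% lower. Those higher included Ephb3, Ephb4, Ephb6, Slit1, Plxna1, Plxnb2 and Sema4d, and those lower were Epha3, Epha4, Epha5, Robo1, Robo2, Dcc and Sema3c. The 3 wildtype libraries of that fit include libraries 2 and 3 with their low TMM factors. The m libraries hold 1 of APPko and gave no test of their own. With the suffix as a covariate 4 members were called higher (Ephb6, Efna1, Plxna1 and Plxnb2) and 3 lower (Epha5, Robo1 and Robo2), against 3.24% of all genes higher and 3.29% lower.

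Wildtype libraries were less alike than APPko libraries. The median coefficient of variation of the tested members was 19.6% in APPko and 28% in wildtype, close to the 19.3% in APPko and 29.3% in wildtype over all tested genes. In APPko, library 3 was the highest of its group for 22 members and the lowest for 13, and library 8 the lowest for 21. In wildtype, library 2 was the lowest for 20 members and library 1 the highest for 17. Single libraries also moved some changes that did not pass by over 1.5 times. Efna3 was at 0.50 without wildtype library 1 and 0.14 without wildtype library 5, against 0.24 with all. Epha7 and Sema5a were at -0.14 and -0.16 without wildtype library 3, Dcc at -0.15 and -0.14 without wildtype library 2 or 3, Unc5a at 0.19 without wildtype library 2, Ntn5 at -0.42 without wildtype library 5, and Efnb3 at 0.16 without APPko library 3.

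**Figure D5:**
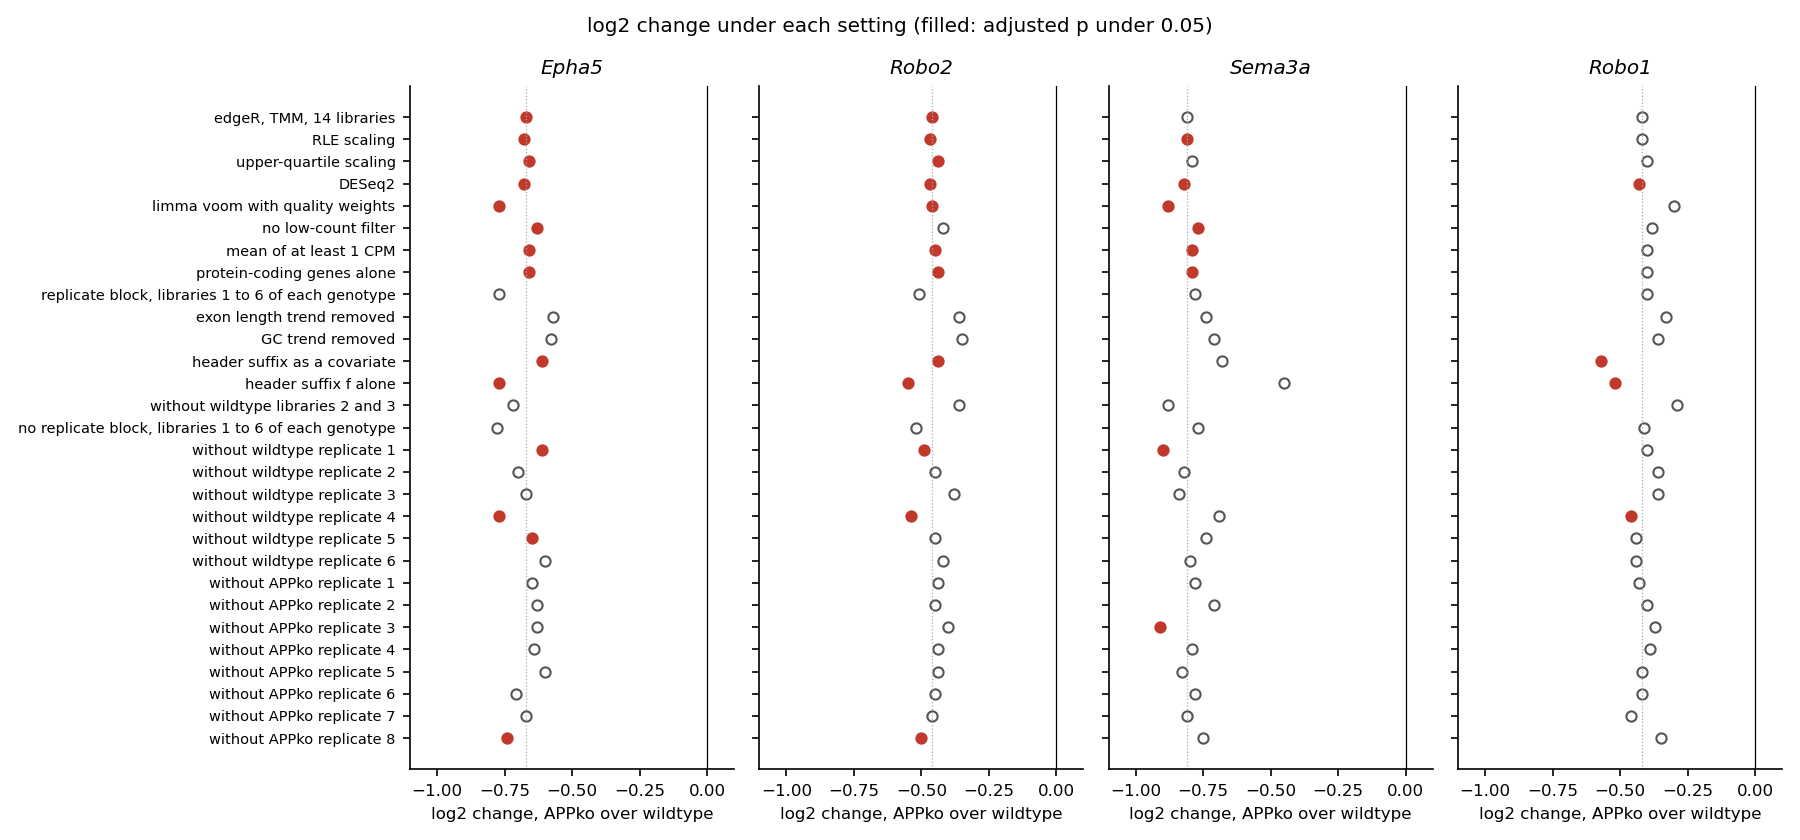
Log2 change of APPko over wildtype for Epha5, Robo2, Sema3a and Robo1 in the comparison of all 14 libraries and in 28 alternative settings, with filled points where the adjusted p was under 0.05 and a dotted line at the value for all 14 libraries. All points lie below 0, and Epha5 passes in 4 of 14 and Robo2 in 3 of 14 settings that leave out a single library.

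Robo2 and Robo1 are the 2 members nearest to App on chromosome 16. The other 4 members on that chromosome were Epha3 at 21.09 Mb (log2 change -0.30, edgeR adjusted p = 0.136), Epha6 at 24.34 Mb (0.01), Sema5b at 49.28 Mb (0.01) and Ephb3 at 63.73 Mb (0.58, edgeR adjusted p = 0.146). Ephb3, the farthest, had 7 of 8 APPko libraries above all wildtype libraries. The exception was APPko library 8, the single m library of APPko, at 2.3 CPM against 3.08 to 3.72 CPM in the m libraries of wildtype. Position on the chromosome and genotype cannot be told apart for genes linked to App, since the labels do not give the background of the line.

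The list of genes that act beside or below these receptors held 52, such as adhesion partners, collapsin response mediators and regulators of small GTPases. Of these 27 had a positive and 25 a negative log2 change, and 1 fell and none rose. Over all genes 1.41% passed as lower and 0.944% as higher, so 1 of 52 lay near the background. That gene was Tiam1, an activator of the GTPase Rac that works below ephrin receptors. It lies on chromosome 16, as App does, so position on the chromosome and genotype cannot be told apart for it either. Tiam1 had 26.3 to 44.5 CPM with a median of 35.9 CPM in APPko and 47.7 to 86 CPM with a median of 68.1 CPM in wildtype. Its log2 change was -0.96 (SE 0.15, edgeR adjusted p = 0.0059). The libraries of the genotypes did not overlap, which held in the lower direction for 0.609% of all genes. The 2 with the next smallest p did not pass. Gsk3b, a kinase of the semaphorin pathway that also lies on chromosome 16, averaged 263 ± 33.7 CPM in APPko and 383 ± 117 CPM in wildtype (log2 change -0.54, edgeR adjusted p = 0.071). Flrt3, an adhesion protein that binds UNC5 receptors, averaged 124 ± 6.55 CPM in APPko and 176 ± 59.9 CPM in wildtype (log2 change -0.51, edgeR adjusted p = 0.0848).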

How the data were processed

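The authors deposited 1 table of raw counts for each library, with a row for each gene symbol. Per the labels' protocols, each library was made from 1 dentate gyrus with a low-input kit (12 cycles of cDNA amplification, 10 ng of cDNA, 10 further cycles) and read as 151 bp pairs. Per the submitters' processing notes, cutadapt 3.5, STAR 2.7.8a and featureCounts 2.0.1 were used on GRCm38 (mm10). The sources used here name no strand, multi-mapping or duplicate setting, and amplified reads are not independent molecules.

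Genotypes were taken from the titles. Families, positions and exon lengths came from the deposited annotation. No 2 libraries of a genotype agreed within sampling noise (43 pairs, chi-square over degrees of freedom 7.76 to 94.1). Counts were filtered by edgeR's expression filter (22150 genes), scaled by TMM and compared by edgeR's robust quasi-likelihood test without covariates, with Benjamini-Hochberg adjustment across these genes and 0.05 as the threshold. The procedure was tested on simulated data. R 4.3.3, edgeR 4.0.16, limma 3.58.1 and DESeq2 1.42.0 were used.

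The members and lists (52 signalling partners and 10 cell type marker lists) were chosen with earlier results of these data known. Named were the members past the threshold and, per family, up to 2 with the smallest p and up to 2 with the highest level per kilobase. Alternatives were RLE and upper-quartile scaling, DESeq2, voom with library weights (limma), looser and stricter filters, protein-coding genes alone, trends over exon length or transcript GC taken out by an offset per library (lowess, span 0.3; GENCODE transcripts of the same build gave a GC value for 99.9% of genes), the header suffix as a covariate or f libraries alone, and libraries left out. Set tests were not run.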

Additional observations from a re-analysis of the deposited data

Results flagged for a closer look

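Among 68 groups of libraries of the named members, 6 held a library far from the others by Dixon's criterion at the 95% level, where chance gives about 1 in 20. Efnb3 reached 51.1 CPM in APPko library 3, against 23.7 to 30.5 CPM in the other APPko libraries, and 29.9 CPM in wildtype library 1, against 21.2 to 24 CPM in the other wildtype libraries. Robo4 was at 1.62 CPM in APPko library 3, against 0.666 to 0.95 CPM in the other APPko libraries, and at 1.45 CPM in wildtype library 1, against 0.338 to 0.55 CPM in the other wildtype libraries. The summed endothelial markers, Cldn5, Pecam1, Flt1, Cdh5 and Esam, were highest in the same libraries, at 24.2 CPM in APPko library 3 (lowest APPko library 9.82 CPM) and 19.5 CPM in wildtype library 1 (lowest wildtype library 9.9 CPM), and none of the 5 was at 0 in all libraries. Singly the markers differed. In APPko, Pecam1, Flt1 and Cdh5 were highest in library 3, but Cldn5 in library 2 and Esam in library 4. In wildtype, Cldn5 and Esam were highest in library 1, but Pecam1 and Flt1 in library 3 and Cdh5 in library 2. The part of these markers in the Robo4 values was not tested. Efna3 was at 20.4 CPM in wildtype library 1, against 7.44 to 11.3 CPM in the others. Sema5a was at 182 CPM in wildtype library 3, against 104 to 132 CPM in the others.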

How the results depend on the processing

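The comparison called 0 members higher, 2 lower and 521 genes in all. DESeq2 called 3 members higher, 5 lower and 1684 genes, and no low-count filter gave 2 members higher (Ephb6 and Plxna1) and 2 lower, Epha5 and Sema3a in place of Robo2. Members lower were 0 with the exon length trend removed (345 genes), with the GC trend removed (223 genes), without wildtype libraries 2 and 3 (35 genes), and in libraries 1 to 6 of each genotype both with the replicate number as a block (20 genes) and without the block (27 genes, added after the data were seen). With the header suffix as a covariate there were 4 members higher and 1446 genes, and among f libraries alone 13 higher, 7 lower and 3672 genes. Leaving out single libraries gave 0 to 2 members higher, 0 to 4 lower and 38 genes (without APPko library 5) to 1436 genes (without wildtype library 4). The cause was not tested. The other settings left the counts of members and genes within 1.5 times, and the members' median log2 change was between -0.02 (GC trend removed) and 0.22 (f libraries alone) over the settings. The labels do not say whether equal replicate numbers pair the samples, and the correlations of such libraries cannot settle it. The deviations of same-numbered libraries correlated at -0.339 to 0.186, and 2 of 6 numbers correlated best with their own. No named member turned its direction while past the threshold in either fit, and 11 of 34 changed sign in an alternative where neither fit passed. Depth limits the members under 1 CPM most, such as Sema4c, Sema3f and Epha1.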
